A study of Homo sapiens with 9 samples.

Results

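The hexosamine pathway makes UDP-GlcNAc, the activated sugar from which cells build many of their glycans, and glycosyltransferases then move this and related sugars onto proteins. 10 genes of this system, listed by symbol, were examined among the 28216 genes of the deposited table. GFPT1, GNPNAT1, PGM3 and UAP1 encode the enzymes of UDP-GlcNAc synthesis. OGT encodes the enzyme that puts single GlcNAc residues on nuclear and cytoplasmic proteins. GALNT7, GCNT1 and ST6GALNAC1 act on mucin-type O-glycans, ST6GAL1 caps N-glycans with sialic acid, and CSGALNACT1 starts chondroitin chains. All 10 genes were found in the table.

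RNA had been sequenced from untreated PC3 cells grown in F12K medium with serum, and from LNCaP cells (clone FCG) in 2 groups, with 3 libraries per group. Both are established epithelial lines from prostate cancer metastases, labelled wild type. All LNCaP cells had first been kept in medium with charcoal-stripped serum, which is low in steroids, and then received 10 nM androgen or vehicle (0.01% ethanol) for 48 h. The labels name the androgen as dihydrotestosterone and the main text of the study names R1881. Androgen acts on the receptor that LNCaP cells keep, and secretory differentiation of prostate epithelium, glycoprotein output included, is known to depend on it. PC3 cells differ from LNCaP cells in line and in medium, and these cannot be told apart here. Nothing in the labels says that the replicates were separate cultures, so p-values measure the spread between these libraries, which may be technical. In bulk RNA, a lower level can come from fewer expressing cells or from less RNA per cell, and these cannot be told apart either.

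The libraries held 17397706 to 25640325 counts on genes, and PC3 replicate 3 stood farthest from its own group. Levels are CPM, the reads of a gene scaled to a common library size, with TMM factors over the 9 libraries, and levels of different genes are compared only as CPM per kb of transcript. A gene was tested where more than 3 CPM were reached in at least 3 libraries of a comparison. A called gene had an edgeR adjusted p-value under 0.05 together with a fold change of 2 or more, a log2 fold change of 1. The 4 genes KLK3, KLK2, FKBP5 and TMPRSS2, classical targets of androgen, were called higher with androgen, with log2 fold changes of 2.89, 4.17, 4.90 and 3.45. In PC3 cells KLK2 had 0 counts and KLK3 2, 2 and 20 counts. The epithelial markers EPCAM, KRT8 and KRT18 summed to 439 to 447 CPM in PC3, 2754 to 3112 in androgen-treated and 725 to 731 in vehicle-treated libraries. With androgen, mean KRT8 went from 269 to 1603 CPM and KRT18 from 334 to 1223, both called higher. EPCAM fell from 125 to 114 CPM (log2 fold change -0.14, edgeR adjusted p = 0.0125, not called). The 6 markers of leukocytes, endothelium and fibroblasts summed to 71.3 to 75.4 CPM in PC3, 28.8 to 34.1 in androgen-treated and 22.9 to 25.5 in vehicle-treated libraries. In LNCaP cells PTPRC and COL1A2 were at 0 counts. Of these 6, CD68 was called higher with androgen, at 18.6 ± 3.20 against 1.86 ± 0.387 CPM (SD, n = 3 per group). COL1A1, the only other one tested, was lower with androgen, at 13.3 ± 1.72 against 22.2 ± 1.63 CPM. Its log2 fold change was -0.74 (edgeR adjusted p = 1.21e-05, not called). In PC3 cells COL1A1 was called higher than in androgen-treated cells and CD68 higher than in vehicle-treated cells. The part of these markers in the results was not tested.

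With androgen, 5 of the 10 genes were called higher in LNCaP cells and 0 were called lower. They were CSGALNACT1, ST6GALNAC1, PGM3, UAP1 and GALNT7. Among all 11697 genes tested, 6.54% were called higher and 7.49% lower. CSGALNACT1 passed the filter on low values only through the androgen-treated libraries and had to be higher there. ST6GALNAC1 was over 3 CPM in only 2 vehicle-treated libraries, so it too needed the androgen-treated ones to pass. At an adjusted p-value under 0.05 without the fold change, 9 of the 10 were higher and OGT was lower. Of all 11697 genes, 74.9% passed that threshold, 4345 of them higher and 4418 lower. PC3 cells had OGT called higher and 6 genes called lower when set against LNCaP cells with androgen, beside 24.0% and 22.1% of the 12541 genes tested. Of these 6, GCNT1, ST6GALNAC1 and CSGALNACT1 passed the filter only through the LNCaP libraries. Set against vehicle-treated LNCaP cells, only 8 of the 10 genes were tested, ST6GAL1 was called higher and GCNT1 lower, beside 22.2% and 21.0% of 12686 genes. GCNT1 again passed the filter only through the LNCaP libraries, so it had to be lower in PC3 cells. The 3 comparisons share libraries and are not independent.

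**Figure D1:**
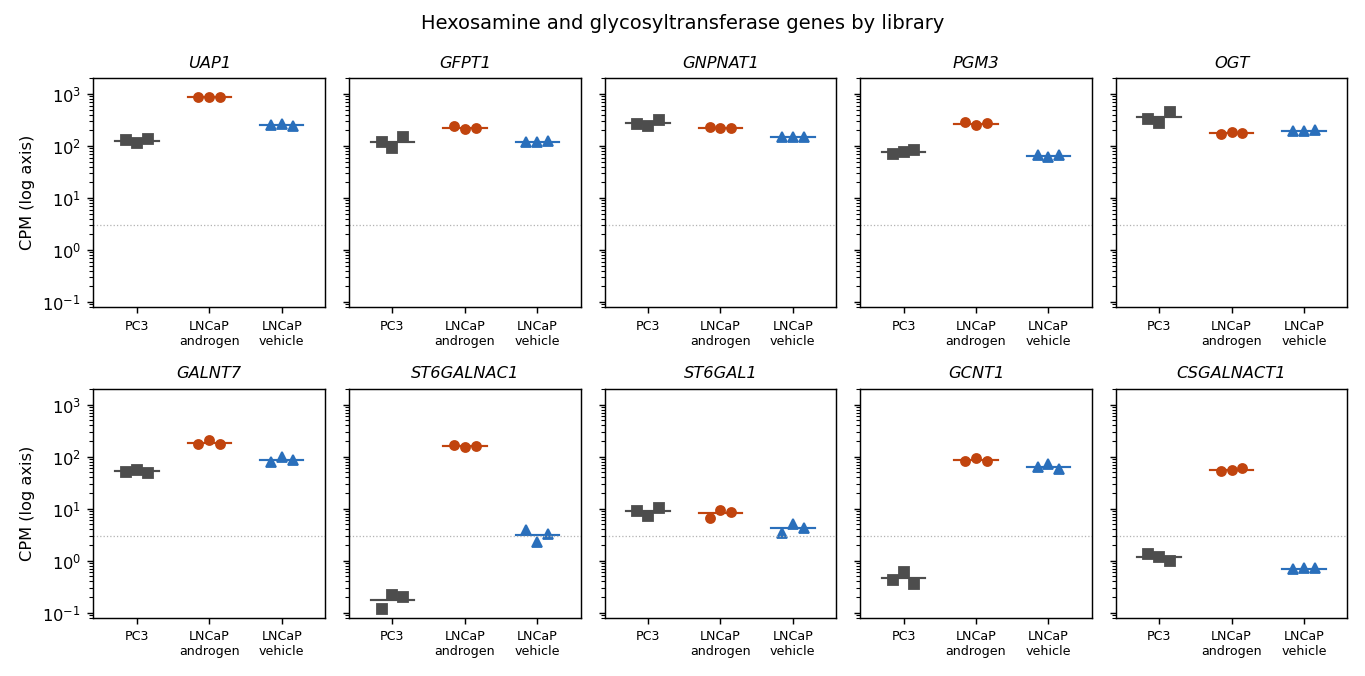
CPM of the 10 genes (log axis) in each library of PC3 cells (squares), androgen-treated LNCaP cells (circles) and vehicle-treated LNCaP cells (triangles). Points are single libraries, horizontal lines are group means and the dotted line marks 3 CPM. UAP1, PGM3, GALNT7, ST6GALNAC1 and CSGALNACT1 are highest in all 3 androgen-treated libraries, and GCNT1 lies below 1 CPM in all 3 PC3 libraries.

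Each of the 4 genes of UDP-GlcNAc synthesis rose with androgen by adjusted p-value, and PGM3 and UAP1 were called. GFPT1 (chromosome 2 of GRCh38, 69319780 to 69387250) encodes the first and rate-limiting enzyme, which makes glucosamine-6-phosphate from fructose-6-phosphate and glutamine. It had 238, 216 and 222 CPM in androgen replicates 1, 2 and 3, and 122.3, 122.2 and 122.4 CPM in vehicle replicates 1, 2 and 3. All 3 androgen-treated libraries lay above the vehicle-treated ones. The log2 fold change was 0.88 (SE, the standard error of the fit, 0.05, edgeR adjusted p = 1.45e-09), under the fold change of 2. PC3 libraries had 118, 92.1 and 146 CPM and overlapped the vehicle-treated group. Between PC3 and vehicle-treated cells the log2 fold change was -0.02 (SE 0.14, edgeR adjusted p = 0.886), and it ran from -0.21 without PC3 replicate 3 to 0.12 without PC3 replicate 2. Against androgen-treated cells it was -0.93 (SE 0.15, edgeR adjusted p = 0.000505), and it passed the fold change of 2 only without PC3 replicate 3, at -1.11.

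GNPNAT1 (chromosome 14, 52775193 to 52791668) encodes the acetyltransferase of the next step. Its levels were 230, 221 and 224 CPM with androgen, 149, 151 and 149 CPM with vehicle, and 268, 248 and 315 CPM in PC3 cells. The 3 groups did not overlap, and PC3 cells were highest. Androgen raised it by 0.59 on the log2 scale (SE 0.04, edgeR adjusted p = 1.16e-08). PC3 cells differed by 0.30 (SE 0.09, adjusted p = 0.0133) from androgen-treated and by 0.91 (SE 0.09, adjusted p = 2.30e-05) from vehicle-treated cells on the same log2 scale, both under the fold change of 2. Of the 74-nt stretches of GNPNAT1 transcripts, 28.6% are not unique in the genome or among transcripts, so its level is uncertain.

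PGM3 (chromosome 6, 83147324 to 83193936) encodes the mutase that moves the phosphate of GlcNAc from carbon 6 to carbon 1. It reached 286, 251 and 274 CPM with androgen and 66.8, 60.5 and 67.6 CPM with vehicle. PC3 cells had 70.3, 75.7 and 83.0 CPM, just above the vehicle-treated libraries without overlap. With androgen the log2 fold change was 2.06 (SE 0.06, edgeR adjusted p = 6.02e-12), the highest of the 4 synthesis genes. PC3 cells were at -1.82 on the log2 scale against androgen-treated cells (SE 0.09, adjusted p = 4.53e-07), and 0.26 higher than vehicle-treated cells (adjusted p = 0.0189, not called).

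UAP1 (chromosome 1, 162561722 to 162601240) encodes the pyrophosphorylase that completes UDP-GlcNAc. Its levels were 866, 884 and 882 CPM with androgen, 251, 266 and 244 CPM with vehicle, and 133, 115 and 135 CPM in PC3 cells. The 3 groups were well apart, and PC3 cells were lowest. On the log2 scale the rise with androgen was 1.79 (SE 0.04, edgeR adjusted p = 7.15e-13). It was -2.78 in PC3 against androgen-treated cells (SE 0.08, adjusted p = 4.63e-08). Against vehicle-treated cells it was -0.97 (SE 0.07, adjusted p = 6.31e-06), just under the fold change of 2, and it passed without PC3 replicate 1 or 3, at -1.01 and -1.02.

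Per kb of transcript, UAP1 was the highest of the 10 genes in both LNCaP groups, at 247 ± 2.78 (SD, n = 3) with androgen and 71.4 ± 3.21 with vehicle. In PC3 cells GNPNAT1 came first at 71.6 ± 8.96 CPM per kb and OGT next at 65.4 ± 17.5, a difference smaller than the spread of either, and UAP1 followed at 35.9 ± 3.06. PGM3 stood at 44.5 ± 2.96 CPM per kb with androgen, beside GALNT7 at 44.2 ± 3.79, and these 2 did not differ beyond their spread. GFPT1, at the entry of the pathway, had 26.02 ± 1.35 CPM per kb with androgen, 14.1 ± 0.0102 with vehicle and 13.7 ± 3.12 in PC3 cells. GFPT2, the other form of the first enzyme, was at 19.1 ± 0.686 CPM in PC3 cells (SD, n = 3) and at 5.01 ± 1.199 and 4.09 ± 0.309 CPM in androgen-treated and vehicle-treated LNCaP cells. It was called higher in PC3 cells, by 1.93 and 2.25 on the log2 scale, and its change with androgen did not pass the test (0.30, adjusted p = 0.138). UAP1L1, a relative of UAP1, rose with androgen by 0.33 on the log2 scale (adjusted p = 0.000258) and was called lower in PC3 than in androgen-treated cells, at -1.14. Of the 7 other tested genes of UDP-GlcNAc synthesis and salvage, 0 were called in either direction with androgen, beside 14.0% of all 11697 genes tested. By adjusted p alone 5 of the 7 rose and 1 fell, beside 4345 and 4418 of all 11697 genes.

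**Figure D2:**
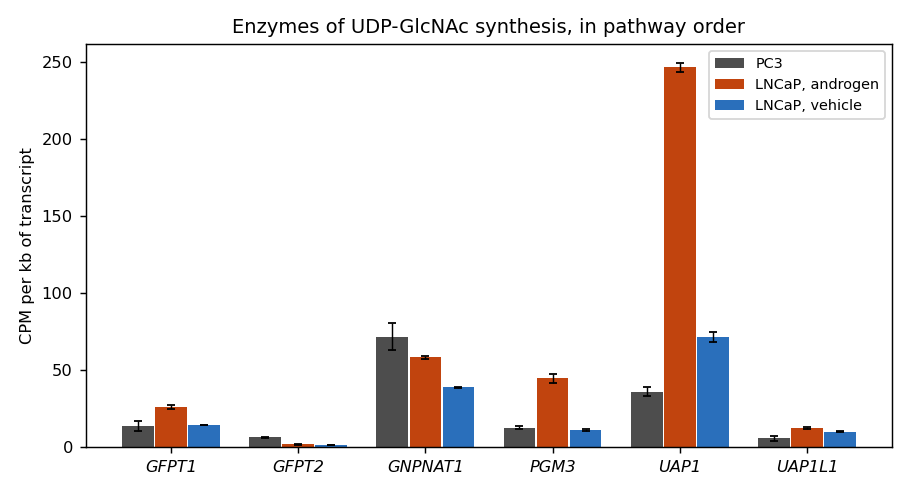
Mean level (CPM per kb of transcript) of the genes for UDP-GlcNAc synthesis in pathway order, with paralogs beside each other, in PC3, androgen-treated and vehicle-treated LNCaP cells. Bars are means of 3 libraries and error bars are SD. UAP1 with androgen, at 247 CPM per kb, is the tallest bar, and GFPT2 has its tallest bar in PC3 cells.

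The promoters of 8 of the 10 genes, without ST6GALNAC1 and CSGALNACT1, were taken from RefSeq (GRCh38.p14), as 14 windows of 300 bases from 250 bases before to 50 after a transcript start. Both strands were searched. None of the 14 windows held AGAACA and TGTTCT with 3 bases between, the letters of an androgen response element (0.00285% of all windows), and none held TGTTCT, one arm of it, which was in 14.8% of all 35116 windows. None held CCAAT and CCACG with 9 bases between, the letters of the ER stress element (0.0769% of all windows), or TGATGNAAN, of the type bound by ATF4 (3.61%). The full androgen response and ER stress elements were in 1 and 27 of all 35116 windows, so their absence from 14 says nothing about these genes. Sequence outside the windows was not searched. TGACGTGG, of the type bound by XBP1 and held by 0.729% of all windows, was found in 1 window of GCNT1. After the windows had been seen, the shorter core GACGTG, which is part of TGACGTGG, was searched as well. It occurred in 7 of the 14 windows and in 5 of the 8 genes, among them each of the 4 genes of UDP-GlcNAc synthesis. Of all windows, 7.81% held it. Among windows with at least 60% G or C, 7 of the 10 windows of these genes held it, beside 10.6% of all 16447 windows. These shares are per window, and no share per gene was computed. Windows of 1 gene can overlap, and 1 match of UAP1 is counted in 2 of the 7 windows. These letters were chosen after the sequences were seen, so the counts are a description, and a match is not a binding site. The stretches around each match in the synthesis genes and GCNT1 are shown to place the shared letters, 5′ to 3′ on the strand of the gene, with GACGTG or its reverse complement CACGTC in capitals.
UAP1, chr1:162561537-162561566, plus strand: gctcccggcgctGACGTGtctgggcggtcg
UAP1, chr1:162561859-162561888, plus strand: gccacgcgctcaGACGTGgacacgcgtcgc
GFPT1, chr2:69387389-69387418, minus strand: acgagccactgcCACGTCgccgccgccagc
PGM3, chr6:83193255-83193284, minus strand: gccacgcagggcCACGTCtgcggttctgag
GNPNAT1, chr14:52791562-52791591, minus strand: cgttggcgctgcCACGTCtgggccgcggtt
GCNT1, chr9:76459016-76459045, plus strand: ctactcccagacCACGTCagtgcccagagg
GCNT1, chr9:76459112-76459141, plus strand: gggcgaggcgggGACGTGgtgggcggggcc

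The match of GFPT1 began 179 bases before its RefSeq start and that of PGM3 7 bases before one of its starts. The match of GNPNAT1 lay 29 bases after a start, and those of GCNT1 began 154 and 58 bases before one. In UAP1, which has several RefSeq starts, one match lay 173 bases before the start at 162561722 and the other 2 bases after the start at 162561870. The windows of OGT, GALNT7 and ST6GAL1 held none of the letters searched. With androgen, UAP1, PGM3, GFPT1, GNPNAT1 and GCNT1, which carry the core, rose by 1.79, 2.06, 0.88, 0.59 and 0.43 on the log2 scale. Of the genes without it, GALNT7 and ST6GAL1 rose by 1.095 and 0.97 and OGT fell by 0.15. ST6GALNAC1 and CSGALNACT1, which rose by 5.67 and 6.32, had no window and could not be placed. With so few genes and letters chosen after the sequences were seen, these values cannot link the core to the rises. The part of the core in the response to androgen was not tested.

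OGT (chromosome X, 71533087 to 71575892) was highest in PC3 cells, with 325, 280 and 462 CPM in replicates 1, 2 and 3. It had 170, 185 and 175 CPM with androgen and 191, 195 and 204 CPM with vehicle. No PC3 library overlapped the LNCaP libraries, and PC3 replicate 3 was far above the other 2. With androgen OGT fell by 0.15 on the log2 scale (SE 0.04, edgeR adjusted p = 0.00517), the only one of the 10 genes that was lower. In PC3 against androgen-treated cells the log2 fold change was 1.01 (SE 0.16, adjusted p = 0.000543), just past the fold change of 2. It fell under that fold with the replicate number as a block (0.98) and without PC3 replicate 3 (0.77), androgen replicate 1 (0.998) or androgen replicate 3 (0.994). Against vehicle-treated cells it was 0.88 (SE 0.16, adjusted p = 0.00128) and was not called, except without PC3 replicate 2, at 1.01. OGA, which removes the residues that OGT adds, went the other way between the lines, at 144 ± 2.37 CPM in PC3 cells (SD, n = 3), 221 ± 12.1 with androgen and 261 ± 13.2 with vehicle. Its log2 fold changes were -0.24 with androgen (adjusted p = 0.000418), -0.62 in PC3 against androgen-treated cells (adjusted p = 2.46e-05) and -0.84 against vehicle-treated cells (adjusted p = 4.62e-06), all under the fold change of 2.

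**Figure D3:**
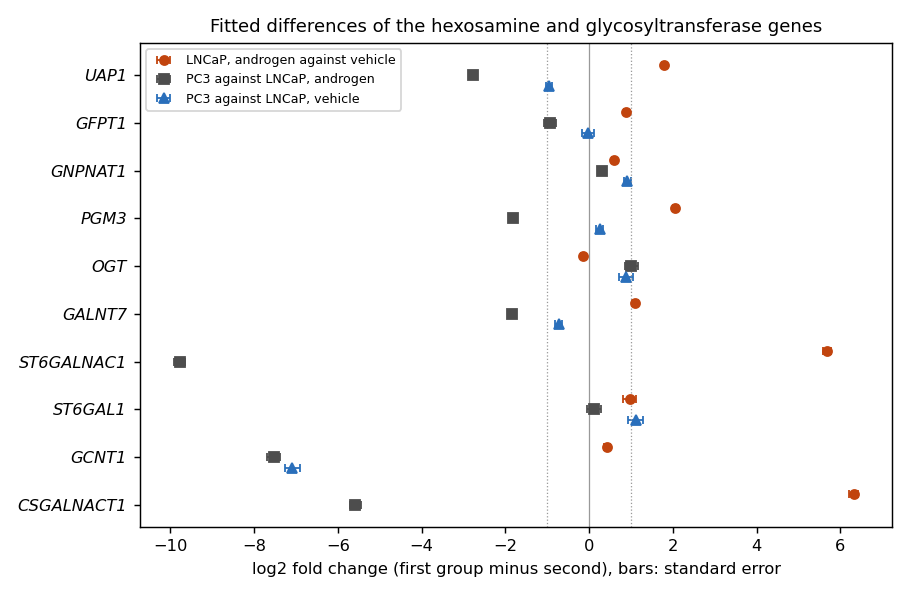
Log2 fold changes of the 10 genes in androgen-treated against vehicle-treated LNCaP cells (circles), in PC3 against androgen-treated cells (squares) and in PC3 against vehicle-treated cells (triangles). Error bars are standard errors of the edgeR fit and dotted lines mark a fold change of 2. ST6GALNAC1 and CSGALNACT1, which were not tested against vehicle-treated cells, have no triangle, and the values with androgen run from -0.15 for OGT to 6.32 for CSGALNACT1.

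GALNT7 (chromosome 4, 173168811 to 173323967) belongs to the family that starts mucin-type O-glycans by adding GalNAc, and prefers peptides that already carry it. It had 179, 206 and 178 CPM with androgen, 79.7, 98.5 and 85.7 CPM with vehicle, and 51.9, 55.0 and 49.5 CPM in PC3 cells. The 3 groups did not overlap. The log2 fold change with androgen was 1.095 (SE 0.07, edgeR adjusted p = 1.94e-08) and did not pass a test against a fold change of 2 (adjusted p = 0.295). It was -1.84 in PC3 against androgen-treated cells (SE 0.08, adjusted p = 3.61e-07) and -0.73 against vehicle-treated cells (SE 0.09, adjusted p = 0.000127, not called). Of 6 other tested GalNAc transferase genes, 0 were called higher with androgen and 1 lower, beside 6.54% and 7.49% of all 11697 genes tested. The 1 called lower was GALNT3, from 102 ± 2.07 to 41.1 ± 0.852 CPM (SD, n = 3 per group), a log2 fold change of -1.31 (adjusted p = 1.87e-11). In PC3 cells, 5 of 9 other tested members of this family were called higher than in androgen-treated cells and 1, GALNT11, lower at -1.61, beside 24.0% and 22.1% of all genes tested. Against vehicle-treated cells, 4 of the 9 were called higher and 2 lower, beside 22.2% and 21.0% of all genes tested. Of those called higher in both comparisons, GALNT6, GALNT12 and GALNT13 passed the filter only through PC3 libraries and had to be higher there. GALNT6 had 73.1 ± 3.60 CPM in PC3 cells (SD, n = 3) against 13 counts in the 3 androgen-treated libraries together, a ratio of 352 with a 95% counting interval of 206 to 661. GALNT13 had 8.45 ± 1.46 CPM in PC3 cells and 0 counts in the androgen-treated libraries, at least 58.5-fold higher against a limit of 3 counts per library. Intervals and limits of this kind cover counting error only.

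GCNT1 (chromosome 9, 76419850 to 76651203) encodes the enzyme that branches core 1 into core 2 O-glycans. It separated the lines more than the treatments, with 11, 14 and 9 counts in the PC3 libraries, or 0.433, 0.609 and 0.356 CPM. It had 82.2, 95.7 and 83.0 CPM with androgen and 62.3, 73.3 and 58.9 CPM with vehicle. The log2 fold change was -7.54 in PC3 against androgen-treated cells (SE 0.16, edgeR adjusted p = 1.58e-08) and -7.09 against vehicle-treated cells (SE 0.18, adjusted p = 2.79e-08). From the summed counts, it was 188-fold higher in androgen-treated cells (95% counting interval 135 to 272) and 140-fold higher in vehicle-treated cells (100.1 to 203). With androgen it rose by 0.43 on the log2 scale (SE 0.08, adjusted p = 0.000231), under the fold change of 2.

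Among the other genes of O-glycan cores, GCNT2, which branches poly-N-acetyllactosamine chains, was called higher with androgen, from 25.6 ± 1.25 to 94.0 ± 8.49 CPM (SD, n = 3 per group), a log2 fold change of 1.87 (adjusted p = 4.79e-11). PC3 cells had 29.7 ± 2.09 CPM of GCNT2, and the log2 fold change was -1.66 against androgen-treated cells and 0.24 against vehicle-treated cells, the latter not called. GCNT3, another core 2 enzyme, was at most 11 counts in any library and was not tested. B3GNT3, which extends core 1, had 14.2 ± 1.11 CPM in PC3 cells and 1 count in all in each LNCaP group. Its ratio to the androgen-treated group was 887 with a 95% counting interval of 159 to 35050.

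ST6GALNAC1 (chromosome 17, 76624761 to 76643786) encodes the sialyltransferase that makes the sialyl-Tn antigen by capping the first GalNAc of an O-glycan. It had 166, 154 and 162 CPM with androgen, 3.93, 2.25 and 3.20 CPM with vehicle (75, 41 and 63 counts), and 3, 5 and 5 counts in the PC3 libraries. Every androgen-treated library was far above every other library. The log2 fold change with androgen was 5.67 (SE 0.10, edgeR adjusted p = 7.49e-14), at position 26 among the rises of 11697 genes. Against androgen-treated cells PC3 cells were at -9.78 (SE 0.14, adjusted p = 6.56e-09), and the ratio of the summed counts was 910 (95% counting interval 532 to 1710) in favour of LNCaP. In PC3 against vehicle-treated cells it did not pass the filter, and the vehicle-treated level was 17.8-fold higher by counts (10.2 to 34.1). Per kb of transcript, ST6GALNAC1 was next after UAP1 in androgen-treated cells, at 64.4 ± 2.44 (SD, n = 3), with 1.26 ± 0.339 in vehicle-treated and 0.0714 ± 0.0211 in PC3 cells. GNPNAT1 followed at 58.2 ± 1.15 with androgen, and since its level is uncertain, so is this order.

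ST6GAL1 (chromosome 3, 186930325 to 187078553) adds α2,6-linked sialic acid to N-glycans. It was low in all groups, with 6.76, 9.33 and 8.57 CPM with androgen, 3.35, 4.99 and 4.22 CPM with vehicle and 9.05, 7.22 and 10.4 CPM in PC3 cells. The PC3 and androgen-treated libraries overlapped, and both lay above the vehicle-treated ones. Its rise with androgen was 0.97 on the log2 scale (SE 0.16, edgeR adjusted p = 0.000105), just under the fold change of 2, and it reached 1.09 without androgen replicate 1 and 1.11 without vehicle replicate 2. In PC3 against vehicle-treated cells it was 1.11 (SE 0.18, adjusted p = 0.000705) and was called, but it fell under the threshold without vehicle replicate 1 (0.98) or PC3 replicate 3 (0.97). In PC3 against androgen-treated cells it was 0.12 (SE 0.17, adjusted p = 0.530). Its relative ST6GAL2 had 9.38 ± 1.44 CPM in PC3 cells (SD, n = 3) and 0 counts in all 6 LNCaP libraries, at least 64.9-fold higher than in androgen-treated cells against a limit of 3 counts per library.

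Of 8 other tested sialyltransferase genes, 0 were called higher with androgen and 1 lower, beside 6.54% and 7.49% of all 11697 genes tested. The 1 called lower was ST8SIA4, which builds polysialic acid and passed the filter only through the vehicle-treated libraries. It had 0, 7 and 8 counts with androgen and 82, 102 and 122 with vehicle, a log2 fold change of -4.44 (SE 0.38, adjusted p = 2.10e-07). Without androgen replicate 1, which had the 0, it was -3.83. ST3GAL5, the synthase of the ganglioside GM3, was called lower in PC3 cells in both comparisons, at -1.99. Of 4 tested genes that supply sialic acid, 1 was called higher and 0 lower with androgen, beside 6.54% and 7.49% of all 11697 genes tested. By adjusted p alone 3 rose and 1 fell, beside 4345 and 4418 of all 11697 genes. NANS, which makes the phosphorylated sialic acid, rose with androgen from 92.5 ± 0.307 to 208 ± 2.71 CPM (SD, n = 3 per group), a log2 fold change of 1.17 (adjusted p = 1.75e-11), although 7.38% of its 74-nt stretches also occur elsewhere. CMAS, which activates sialic acid as CMP-sialic acid, rose by 0.86 (adjusted p = 3.36e-10), under the fold change of 2, and was called lower in PC3 cells at -1.88 and -1.002 against the androgen-treated and vehicle-treated groups. GNE, the first enzyme of sialic acid synthesis, which starts from UDP-GlcNAc, had 38.7 ± 4.72 CPM in PC3 cells (SD, n = 3) but 9, 13 and 8 counts with androgen and 1, 0 and 1 with vehicle. By counts, GNE was 80.1-fold higher in PC3 than in androgen-treated cells (95% counting interval 56.0 to 119).

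CSGALNACT1 (chromosome 8, 19404161 to 19758029) encodes the GalNAc transferase that commits a glycosaminoglycan linker to chondroitin. It had 52.9, 55.9 and 60.5 CPM with androgen, 13, 13 and 14 counts with vehicle, and 34, 27 and 25 counts in the PC3 libraries. Only the androgen-treated libraries were above 3 CPM. The log2 fold change with androgen was 6.32 (SE 0.11, edgeR adjusted p = 1.02e-13), at position 19 among the rises of 11697 genes, and the ratio of the summed counts was 80.2 (95% counting interval 58.8 to 112). With reads of both strands counted, it was 5.17. In PC3 against androgen-treated cells it was -5.59 (SE 0.13, adjusted p = 1.97e-08), and -4.23 with both strands counted. Against vehicle-treated cells it did not pass the filter, where PC3 had 1.17 ± 0.175 and vehicle-treated cells 0.702 ± 0.0178 CPM (SD, n = 3 per group). On the strand opposite to the gene, reads came to 6.04% of those on CSGALNACT1, the highest share among the 10 genes.

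CSGALNACT2, the close relative of CSGALNACT1, differed far less, at 33.1 ± 1.32 with androgen, 24.9 ± 2.12 with vehicle and 51.0 ± 4.98 CPM in PC3 cells (SD, n = 3 per group). Its log2 fold change was 0.41 with androgen (adjusted p = 0.000159) and 1.05 in PC3 against vehicle-treated cells (adjusted p = 1.93e-05). Of 9 other tested genes of chondroitin chain synthesis, 1 was called higher and 0 lower with androgen, beside 6.54% and 7.49% of all 11697 genes tested. The 1 called higher was CHPF, a partner of the chain polymerase. CHPF rose from 42.8 ± 1.27 to 128 ± 12.5 CPM (SD, n = 3 per group), a log2 fold change of 1.58 (adjusted p = 2.74e-10). CHSY3, another chondroitin synthase, had 8.41 ± 0.902 CPM in PC3 cells against 10 counts in the androgen-treated libraries together, a ratio of 52.3 (95% counting interval 28.3 to 110). B3GAT3, which completes the linker, was called lower in PC3 than in androgen-treated cells, at -1.11.

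Besides the 10 genes, 96 genes of the same system were listed, and 57 of them were tested with androgen. Of these, 7.02% were called higher and 5.26% lower, close to the shares over all genes of 6.54% and 7.49%, with a median log2 fold change of 0.23 against -0.0068 over all genes. The 4 called higher were NANS, CHPF, GCNT2 and B4GALT1, and the 3 called lower were GALNT3, ST8SIA4 and FUT8. B4GALT1, which adds galactose to GlcNAc, rose from 164 ± 7.49 to 378 ± 8.71 CPM (SD, n = 3 per group), and PC3 cells had 52.8 ± 2.99 CPM. FUT8, the enzyme of core fucose, fell with androgen from 28.4 ± 1.84 to 12.3 ± 0.306 CPM and was at 222 ± 16.6 CPM in PC3 cells (SD, n = 3), log2 fold changes of -1.21 with androgen and of 4.18 and 2.99 in PC3 against androgen-treated and vehicle-treated cells. For FUT8, 12.1% of the 74-nt stretches also occur elsewhere. 0 of 4 fucosyltransferase genes and 0 of 5 nucleotide sugar transporter genes were called with androgen by edgeR, beside 14.0% of all 11697 genes tested. By adjusted p alone 3 of the 4 and 4 of the 5 rose, as did 4345 of all 11697 genes.

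**Figure D4:**
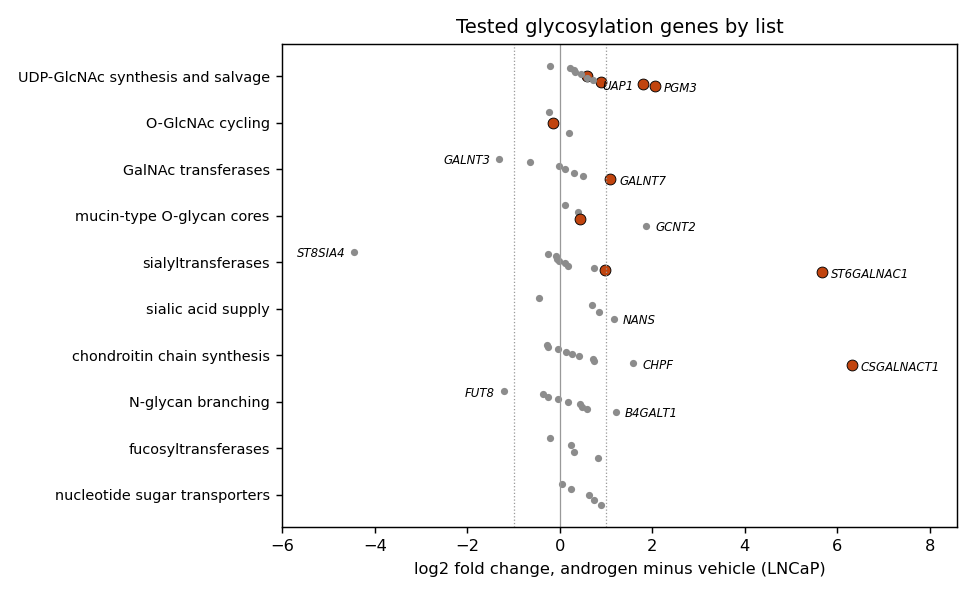
Log2 fold change with androgen in LNCaP cells for every tested gene of 10 lists of glycosylation genes. Large outlined points are the 10 genes described here and small grey points the 57 others, dotted lines mark a fold change of 2, and genes beyond it are named. Most grey points lie between the dotted lines, and CSGALNACT1 (6.32) and ST6GALNAC1 (5.67) lie farthest to the right.

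Between the lines, 67 of the 96 other genes were tested. With androgen-treated cells as reference, 20 of them had higher and 14 lower called levels in PC3 cells (29.9% and 20.9%, against 24.0% and 22.1% of all genes tested), with a median log2 fold change of 0.11. Against vehicle-treated cells, 26 were called higher and 10 lower (38.8% and 14.9%, against 22.2% and 21.0% of all genes tested), with a median of 0.56. The medians over all genes were 0.036 and 0.026. Of the genes called, GALNT6, GALNT12, GALNT13, B3GNT3, ST3GAL6, ST6GAL2, ST6GALNAC2, GNE, CHSY3, FUT4 and SLC35D1 passed the filter only through PC3 libraries. They entered the test by being high in PC3 cells, so their part of the counts called higher was set by the filter. ST3GAL5, MGAT4A, FUT1, FUT3 and, against vehicle-treated cells, ST8SIA4 passed it only through LNCaP libraries, and the same holds for their part of the counts called lower. MGAT4A, which branches N-glycans, was called lower in PC3 cells at -3.08 and -3.10, and FUT1, which makes the H antigen, at -2.31 and -2.04 against androgen-treated and vehicle-treated cells. FUT11, which had 10.3% of its stretches elsewhere, was called higher at 1.75 and 2.07. FUT3, the Lewis fucosyltransferase, had 24 counts at most in a PC3 library and was called lower than in androgen-treated cells at -2.82, with 11.7% of its stretches elsewhere. SLC35D1, a carrier of UDP-sugars into the endoplasmic reticulum, had 9.98 ± 0.929 CPM in PC3 cells (SD, n = 3) and at most 2 counts in any LNCaP library, a ratio of 156 to the androgen-treated group (95% counting interval 60.6 to 573).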

How the data were processed

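Poly(A) RNA of 9 libraries was sequenced with single reads. The authors trimmed reads with cutadapt 4.1, aligned them to hg38 with STAR 2.7.7a and removed duplicates with UMI-tools 1.1.2, per the submitters' processing notes. The study's supplement names other versions of cutadapt and STAR. They deposited counts, whole numbers of reads per gene and library without normalization, which equalled the forward-strand counts of STAR for all 28216 genes. Library totals and the limits they set are given above, and 20.3% to 25.4% of reads were not on genes. 0 columns were left out.

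With edgeR 4.0.16 in R 4.3.3, these counts were scaled by TMM and compared by quasi-likelihood F tests on the 6 libraries of each comparison, for genes over 3 CPM in at least 3 libraries, with Benjamini-Hochberg adjustment. The study used a likelihood ratio test with a batch term, and its batches are not named in the sources used here. Transcript lengths, positions and 74-nt stretches come from GENCODE 44 on GRCh38. Counts of 0 were bounded at 3 counts, and ratios of low counts have exact 95% intervals. Alternatives included DESeq2 1.42.0, other filters and tests, unstranded counts and leaving out each library.

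The genes and lists were chosen with earlier results of these data known. Besides the 10 genes, the text names their direct counterparts, 4 androgen targets and, from each list, the called genes that rose and fell most (the top 2 each with androgen, the top 1 each between lines) among genes over 3 CPM in every library of a group. CD68, COL1A1 and the core letters GACGTG were chosen after their values were seen. GALNT12, ST3GAL6, ST6GALNAC2 and FUT4 are named only for how they passed the filter.

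The groups carry the same replicate numbers. Over 8992 genes, deviations from the mean of the group correlated at 0.19, 0.26 and 0.26 for LNCaP libraries with equal numbers and at -0.28 to 0.08 for the others. Each of the 3 values for equal numbers was over the limit of 0.1 set for pairing. The values given, SEs and p-values included, come from the fit without a block and take no account of this pairing. The replicate number as a block changed no call of the 10 genes with androgen.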

Additional observations from a re-analysis of the deposited data

How the results depend on the processing

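Of the results for the 10 genes under the alternatives, 442 kept their direction and call, 18 were called newly, 10 were no longer called and 3 changed sign. These counts include the adjusted p-value alone and the test against a fold change of 2. Both left the fold changes as they were and altered only the rule, so calls gained or lost under them are not shifts in level. The sign changes were at values near 0. ST6GAL1 in PC3 against androgen-treated cells ranged from -0.0089 without PC3 replicate 3 to 0.24 without PC3 replicate 2, and GFPT1 in PC3 against vehicle-treated cells was 0.0151 with at least 10 counts in every library and ranged from -0.21 without PC3 replicate 3 to 0.12 without PC3 replicate 2. Without a filter, 2941 genes were called with androgen, 9147 between PC3 and androgen-treated cells and 8713 between PC3 and vehicle-treated cells, against 1641, 5773 and 5485. With the adjusted p-value alone, 8763, 10530 and 10577 genes were called. Of the 10 genes, 10 of 10 tested were called with androgen and 7 of 8 tested in PC3 against vehicle-treated cells, beside 74.9% and 83.4% of all genes tested. In PC3 against vehicle-treated cells, 1 was called with at least 10 counts in every library, against 2 in the main fit. That filter took out GCNT1, which had 9 counts in PC3 replicate 3. In a test against a fold change of 2, 1 was called, and ST6GAL1 no longer passed (edgeR adjusted p = 0.284). With each library left out in turn, 1601 to 1686, 5717 to 5830 and 5415 to 5616 genes were called, and 5 to 6, 6 to 7 and 1 to 3 of the 10 genes. The replicate number as a block gave 1638, 5756 and 5495 genes and 5, 6 and 2 of the 10, and OGT in PC3 against androgen-treated cells was the only one of the 10 genes whose call it changed. Deviations of PC3 libraries correlated with those of same-numbered libraries at -0.20 to 0.05 for androgen-treated and at -0.23 to 0.07 for vehicle-treated cells. For different numbers the values were -0.25 to 0.23 and -0.18 to 0.18. Whether libraries of the 2 lines shared a batch was not tested. Depth limits the values of GCNT1, CSGALNACT1 and ST6GALNAC1 in PC3 cells, which rest on 3 to 34 counts per library. The causes of these shifts were not tested.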
